A study of Mus musculus with 12 samples.

Results

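Described here are 9 genes of the NF-κB system, *Nfkbia*, *Nfkbie*, *Nfkbiz*, *Bcl3*, *Tnfaip3*, *Rela*, *Relb*, *Nfkb1* and *Nfkb2*, chosen by symbol as *Nfkbia* and the inhibitors, regulators and subunits of its feedback circuit. They are 9 of the 38926 gene symbols counted in each liver, and all 9 were among the 14488 genes that passed the filter on low counts. The livers came from wild-type and Rev-erbα-/- (knockout) mice on a 129Ola/C57BL6 background, male and 12 weeks old, kept in 12 h of light and 12 h of darkness with free access to food and water. Groups of 3 mice per genotype were taken at zeitgeber time (ZT) 8, in the light phase, and at ZT20, in the dark phase, with 1 liver in each library, so that 4 groups and 12 libraries were compared. The knockout was in the germline and affected every cell of the body, and its carriers were bred from heterozygous pairs, so a value in the liver cannot be assigned to the loss of REV-ERBα in hepatocytes. The RNA was of whole liver, in which fewer cells of a type and less RNA per cell cannot be told apart.

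NF-κB is a family of dimeric transcription factors that are held in the cytoplasm by IκB proteins. Signals from cytokine and pattern recognition receptors activate the IκB kinase complex, IκBα is phosphorylated and degraded, and the freed dimers enter the nucleus. Among their targets are the genes of their own inhibitors, such as *Nfkbia* and *Tnfaip3*, which ends the response, and *Nfkbia* is also known as a gene induced by the glucocorticoid receptor (GR). *Nr1d1* encodes REV-ERBα, a nuclear repressor of clock genes such as *Arntl*, and the study asked how it and GR influence each other in the liver.

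The IκB genes were the members of most interest for sequence, because NF-κB dimers are known to act on their promoters. RefSeq promoter windows (GRCm38.p6) were found for 6 of the 9 genes, *Nfkbia*, *Nfkbie*, *Bcl3*, *Nfkb2*, *Rela* and *Tnfaip3*, and the 250 bases before each start were searched on both strands for the κB consensus of 10 bases. It was present in at least 1 window of 4 of these genes, *Nfkbia*, *Nfkbie*, *Nfkb2* and *Tnfaip3*, and in 3.9% of the 32851 windows of the same length in the whole RefSeq set. The 6 genes had 9 windows, with more than 1 for *Nfkb2* and *Tnfaip3*, so the count of genes is not a share of windows. Both IκB genes are printed to show where the match lies, and *Bcl3* and *Rela* as members whose window held no match. The part of a window that runs into an annotated exon was left out, capitals mark the κB match, and each sequence reads 5′ to 3′ on the strand of the gene.
Nfkbia, chr12:55492648-55492897, minus strand: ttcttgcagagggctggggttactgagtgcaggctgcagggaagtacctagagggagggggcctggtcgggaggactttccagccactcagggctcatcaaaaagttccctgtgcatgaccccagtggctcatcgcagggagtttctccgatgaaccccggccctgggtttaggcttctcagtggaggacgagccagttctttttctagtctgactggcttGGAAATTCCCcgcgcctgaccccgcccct
Nfkbie, chr17:45555450-45555699, plus strand: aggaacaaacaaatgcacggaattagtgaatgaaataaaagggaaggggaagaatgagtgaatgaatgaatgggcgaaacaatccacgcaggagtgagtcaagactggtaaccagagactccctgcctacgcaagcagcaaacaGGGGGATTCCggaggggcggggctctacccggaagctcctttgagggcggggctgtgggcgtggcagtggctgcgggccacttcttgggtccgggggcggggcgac
Bcl3, chr7:19822771-19823005, minus strand: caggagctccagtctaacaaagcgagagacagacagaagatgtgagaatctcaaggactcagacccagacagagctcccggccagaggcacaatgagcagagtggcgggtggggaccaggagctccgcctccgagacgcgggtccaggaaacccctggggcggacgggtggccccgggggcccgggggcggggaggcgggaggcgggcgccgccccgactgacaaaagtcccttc
Rela, chr19:5637291-5637482, plus strand: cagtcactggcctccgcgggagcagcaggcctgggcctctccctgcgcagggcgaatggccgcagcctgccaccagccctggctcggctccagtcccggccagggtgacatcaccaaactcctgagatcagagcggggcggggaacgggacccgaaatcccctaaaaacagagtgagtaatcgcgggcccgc
The match of *Nfkbia* lay 29 to 20 bases before the start, and that of *Nfkbie* 106 to 97 bases before it. The half-site AGAACA bound by GR was not among the letters of these 4 windows, and neither was the nuclear receptor half-site AGGTCA. The whole set held the first in 16.1% and the other in 14.0% of its windows. Among the members' windows not printed, AGAACA was found in a window of *Tnfaip3*, 11 to 6 bases before its start. A match describes the letters and not binding.

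Between 17641809 and 26060192 reads were counted on genes per library, and 3 counts then correspond to 0.117 to 0.167 CPM, that is counts scaled to the size of the library. Reads on *Nr1d1* were still counted in knockout livers, at 63.0, 71.9 and 80.6 CPM at ZT8 against 129, 96.2 and 75.3 in wild-type (edgeR adjusted p = 0.143), and counts per symbol do not show which exons they came from. *Arntl*, looked up in addition as a gene that REV-ERBα represses, was at 22.7 to 25.7 CPM in the knockout livers at ZT8 and at 0.448 to 0.796 in wild-type. Summed hepatocyte markers reached 48865 to 103227 CPM, whereas summed lymphocyte markers stayed at 1.42 to 3.12. Summed neutrophil markers stayed at 0.630 to 2.64 in 11 libraries, with 7.78 in wild-type replicate 3 at ZT20. Among the neutrophil genes *Ly6g* had 0 counts in every library. The highest counts in a library were 77 for *S100a9*, 65 for *S100a8*, 22 for *Cxcr2*, 9 for *Retnlg* and 5 for *Mmp8*. Wild-type replicates 2 and 3 at ZT8 stood apart. They had 4972 and 6489 CPM of the acute-phase transcript *Saa1*, while the other 10 livers had 21.2 to 96.8. The 21 acute-phase genes summed to 47878 and 59165 CPM in these livers and to 22685 to 28829 in the others. The 7 Kupffer cell and macrophage markers summed to 448 and 544 CPM there, and to 295 to 410 in the others. For the 9 genes and for the pathway genes called at ZT8, the log2 fold change at ZT8 is therefore also given without both livers. A lone wild-type liver then stands for ZT8 and is assumed to vary like the other groups.

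Per length of exon, *Nfkbia*, which encodes IκBα, was the most abundant of the 9 transcripts in wild-type liver at ZT8, with 23.7 ± 0.5 CPM per kb (SD, n = 3). *Rela*, which encodes the transactivating subunit p65, followed with 14.9 ± 0.8 and *Bcl3*, a nuclear IκB-related coregulator, with 6.36 ± 2.7 CPM per kb. *Nfkbiz* and *Nfkb1* had 2.66 ± 0.53 and 2.58 ± 0.01 CPM per kb, and their ranges overlapped. The length was that of all annotated exons of a gene joined, 12061 bases for *Nfkb1* and 2475 for *Bcl3*. Before scaling to length *Nfkb1* was at 31.1 CPM and *Bcl3* at 15.8, so their order depends on that length. *Nfkb2* and *Nfkbie* overlapped as well, at 1.31 ± 0.09 and 1.08 ± 0.24 CPM per kb, and so did *Relb* and *Tnfaip3*, at 0.524 ± 0.092 and 0.518 ± 0.017. In Rev-erbα-/- liver the level of *Nfkbia* reached down into the range of *Rela*. At ZT20 in knockout liver *Nfkbia* spanned 14.9 to 15.4 CPM per kb and *Rela* 13.5 to 16.3. In wild-type liver at ZT20 their ranges of 17.4 to 24.0 and 13.9 to 14.7 were apart. At ZT8 the ranges were 15.6 to 17.6 and 11.9 to 16.4 in knockout liver. In wild-type liver at ZT8 those of 23.1 to 24.1 and 14.0 to 15.5 were apart.

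**Figure D1:**
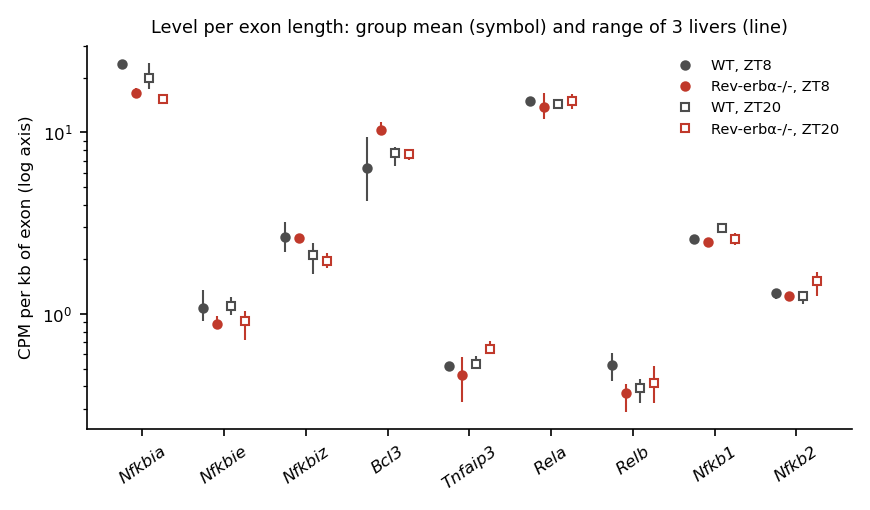
Level of the 9 transcripts in CPM per kb of exon on a log axis, as the group mean (symbol) and the range of 3 livers (line) for wild-type (grey) and knockout (red) at ZT8 (filled) and ZT20 (open). *Nfkbia* lay above *Rela* in both wild-type groups, and *Relb* and *Tnfaip3* were lowest.

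*Nfkbia*, on chromosome 12 from 55489410 to 55492647 (GRCm38, minus strand, 1610 bases in 6 exon blocks), was lower in the knockout at both times. At ZT8, the wild-type livers held 38.4, 38.8 and 37.1 CPM of it and the knockout livers 25.8, 25.1 and 28.4. At ZT20, it was 28.0, 29.5 and 38.7 CPM in wild-type and 24.6, 24.0 and 24.7 in knockout. The genotypes did not overlap at either time, and wild-type replicate 3 at ZT20 lay at the level of the ZT8 wild-type livers. This liver also had the highest sum of neutrophil markers, 7.78 CPM against at most 2.64 in the other 11, and the part of these cells in its *Nfkbia* level was not tested. The log2 fold change was −0.53 at ZT8 (95% interval −0.74 to −0.31, adjusted p = 0.00488, edgeR), which corresponds to 0.69 times the wild-type level, and −0.39 at ZT20 (−0.61 to −0.17, adjusted p = 0.0469). A two-sided exact permutation test gave p = 0.1 at each time, the smallest that 3 against 3 allows. The study reported the opposite direction from qRT-PCR, with *Nfkbia* upregulated in knockout liver. It also placed *Nfkbia* among the genes altered both in its RNA sequencing at ZT8 and after dexamethasone. In cultured knockout hepatocytes pretreated with dexamethasone, it reported accumulation of unphosphorylated IκBα protein. The cause of the difference in direction was not tested.

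Of all genes tested, 8.45% passed the threshold of 0.05 on the adjusted p-value at ZT8 (4.4% higher and 4.04% lower in knockout), and 1 of the 9 members did, *Nfkbia*. At ZT20, 3.63% of all genes passed (2.09% higher and 1.54% lower), and *Nfkbia* was again the 1 member among them. An unadjusted p under 0.05 was reached by 2 members at each time. The share of all genes at that limit was not computed, here or for the other counts of unadjusted p-values. Genotypes did not overlap for 4 of 9 members at ZT8 and 3 of 9 at ZT20, while this held for 25.6% and 22.5% of all genes. The median log2 fold change of the 9 genes was −0.11 at ZT8 against 0.0018 for all genes, and −0.0024 at ZT20 against −0.00068.

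The decrease of *Nfkbia* at ZT8 was as large without both livers high in *Saa1*, at −0.54, but its adjusted p was then 0.0800. The ZT20 result was less firm. Without wild-type replicate 3 it was −0.23 (adjusted p = 0.190), and 9 of the 12 leave-one-out fits lost the call. The change from ZT8 to ZT20 did not pass the threshold in wild-type (−0.25, adjusted p = 0.0794) or knockout (−0.11, adjusted p = 0.511). In wild-type it was −0.42 without replicate 3 at ZT20 (adjusted p = 0.00157). Between ZT8 and ZT20 the genotype effects differed by −0.14 (95% interval −0.44 to 0.17, adjusted p = 0.658), in a contrast in which 5.88% of all genes and 0 of the 9 members passed, with 0 members at an unadjusted p under 0.05 and 0 with DESeq2.

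**Figure D2:**
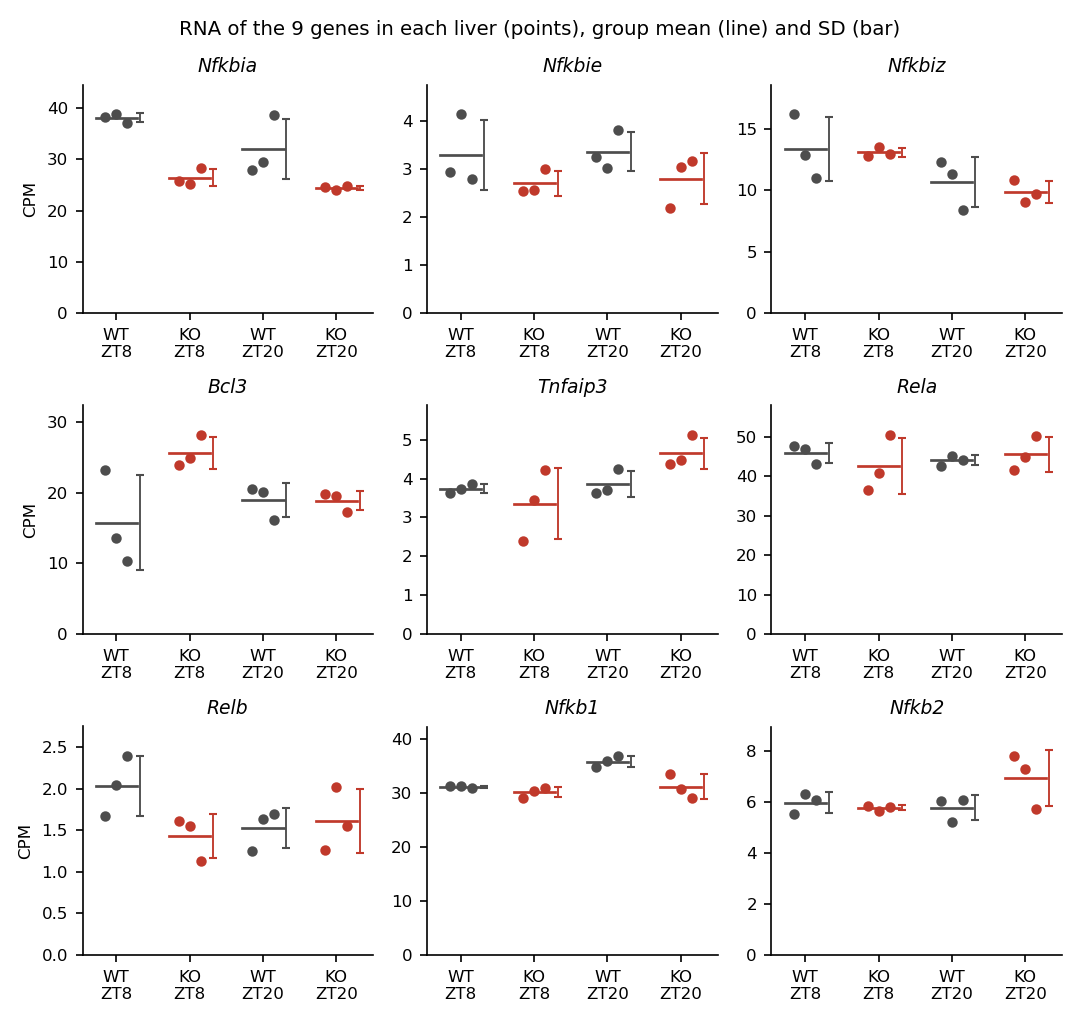
CPM of the 9 genes in each of the 12 livers (points), with the group mean (line) and SD (bar), n = 3 per group. *Nfkbia* in knockout livers (red) lay below wild-type (grey) at both times, and wild-type *Bcl3* at ZT8 was spread from 10.4 to 23.3.

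*Nfkbie*, on chromosome 17 from 45555703 to 45563169, encodes IκBε, another cytoplasmic inhibitor. It was at 2.94, 4.14 and 2.80 CPM in wild-type and 2.54, 2.56 and 2.99 in knockout liver at ZT8, and at 3.26, 3.01 and 3.80 against 2.18, 3.04 and 3.16 at ZT20. The genotypes overlapped at both times. Its log2 fold changes of −0.28 (95% interval −0.71 to 0.15) and −0.26 (−0.68 to 0.16) had adjusted p-values of 0.437 and 0.610, and these intervals include the value of *Nfkbia*. Without both livers high in *Saa1* the ZT8 value was −0.13 (adjusted p = 0.899).

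*Nfkbiz* and *Bcl3* encode the nuclear IκB-related proteins IκBζ and BCL-3, which bind NF-κB dimers on DNA. *Nfkbiz* (chromosome 16, 55811375 to 55838899) was at 16.2, 12.9 and 11.0 CPM in wild-type and 12.8, 13.5 and 13.0 in knockout liver at ZT8. At ZT20 it was at 12.3, 11.3 and 8.36 in wild-type and 10.8, 9.04 and 9.69 in knockout. Genotypes overlapped at both times, with log2 fold changes of −0.035 and −0.11 (adjusted p = 0.918 and 0.823). Without both livers high in *Saa1* the ZT8 value was −0.31 (adjusted p = 0.500). From ZT8 to ZT20, *Nfkbiz* in knockout liver went from at least 12.8 to at most 10.8 CPM, without overlap (−0.41, adjusted p = 0.0769).

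*Bcl3* (chromosome 7, 19808462 to 19822770) had the largest difference of the 9 genes at ZT8 in the direction opposite to *Nfkbia*, and that difference did not pass the threshold. At ZT8, the wild-type livers held 23.3, 13.6 and 10.4 CPM of it and the knockout livers 23.9, 24.9 and 28.2. At ZT20, it was at 20.6, 20.1 and 16.2 in wild-type and 19.9, 19.5 and 17.3 in knockout. At ZT8 the wild-type livers with 13.6 and 10.4 CPM were replicates 2 and 3, those high in *Saa1*, and replicate 1, with 60.8 CPM of *Saa1*, lay just below the knockout livers. The log2 fold change at ZT8 was 0.69 (95% interval 0.16 to 1.23, adjusted p = 0.111), at ZT20 −0.0024 (−0.53 to 0.53), and the difference between these effects was 0.70 (adjusted p = 0.294).

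The call of *Bcl3* at ZT8 depended on wild-type replicate 1 and on the test used. Without wild-type replicate 1 its log2 fold change was 1.09 (adjusted p = 0.00011), and without both other wild-type livers it was 0.14 (adjusted p = 0.773). DESeq2 on the 12 samples gave 0.70 with an adjusted p of 0.0169. In the same livers *Nfkbiz* was at 12.9 and 11.0 CPM, against 16.2 in replicate 1, and *Nfkbia* was at 38.8 and 37.1, against 38.4. The part of the acute-phase state of these livers in the levels of *Bcl3* was not tested. *Bcl3* shares 161 exonic bases, 6.51% of its exon length, with the antisense gene *Gm16175*, on the opposite strand. The counting ignored the strand, so reads on shared bases were ambiguous and left out wherever the authors' annotation held both genes.

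**Figure D3:**
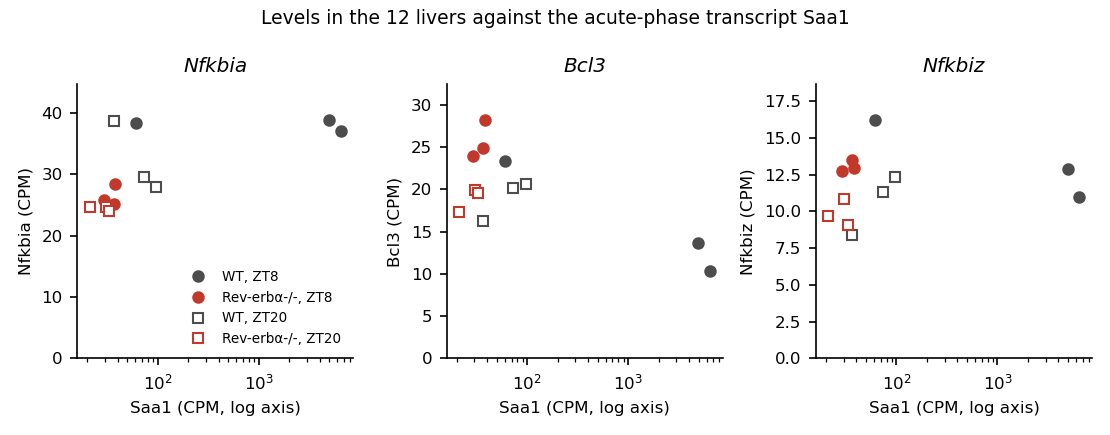
Levels of *Nfkbia*, *Bcl3* and *Nfkbiz* (CPM) in the 12 livers against *Saa1* (CPM, log axis). At 4972 and 6489 CPM of *Saa1*, *Nfkbia* was at 38.8 and 37.1 and *Bcl3* at 13.6 and 10.4, the lowest *Bcl3* values of the 12 livers.

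*Tnfaip3* (chromosome 10, 19000910 to 19015657) encodes A20, a ubiquitin-editing enzyme that shuts off signalling upstream of the IκB kinases. It was at 3.62, 3.74 and 3.86 CPM in wild-type and 2.39, 3.44 and 4.21 in knockout liver at ZT8, and at 3.63, 3.72 and 4.25 against 4.37, 4.48 and 5.11 at ZT20. At ZT20 the knockout livers were all above the wild-type livers, with a log2 fold change of 0.27 (95% interval −0.11 to 0.64, adjusted p = 0.546), and at ZT8 it was −0.16 (adjusted p = 0.660), or −0.11 without both livers high in *Saa1*. Its change from ZT8 to ZT20 in knockout liver, 0.47 (adjusted p = 0.0864), was 0.67 without knockout replicate 3 at ZT8 (adjusted p = 0.0251).

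Of the 4 subunit genes, *Rela*, *Relb*, *Nfkb1* and *Nfkb2*, none passed the threshold between genotypes at ZT8 or ZT20. *Rela* (chromosome 19, 5637483 to 5648130) was at 47.8, 46.8 and 43.0 CPM in wild-type and 36.6, 40.8 and 50.3 in knockout liver at ZT8, and at 42.7, 45.2 and 44.2 against 41.5, 44.8 and 50.2 at ZT20. The genotypes overlapped, and the log2 fold changes of −0.11 (95% interval −0.33 to 0.11) and 0.048 (−0.17 to 0.27) had adjusted p-values of 0.575 and 0.899. Without both livers high in *Saa1* the ZT8 value of *Rela* was −0.17 (adjusted p = 0.712). *Relb* (chromosome 7, 19606217 to 19629438), the activating subunit of the non-canonical pathway, was at 1.67, 2.04 and 2.39 CPM in wild-type and 1.61, 1.56 and 1.13 in knockout liver at ZT8. These values did not overlap, but the log2 fold change of −0.50 had an interval of −1.03 to 0.027 (adjusted p = 0.236), and without both livers high in *Saa1* it was −0.23 (adjusted p = 0.848). At ZT20 *Relb* was at 1.26, 1.64 and 1.70 against 1.26, 2.03 and 1.56 CPM (0.078, adjusted p = 0.935).

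*Nfkb1* (chromosome 3, 135584655 to 135691547) encodes p105, the precursor of p50. It was at 31.2, 31.2 and 30.9 CPM in wild-type and 29.1, 30.4 and 30.9 in knockout liver at ZT8. At ZT20, it was at 34.7, 35.8 and 36.8 in wild-type and 33.6, 30.7 and 29.1 in knockout. The genotypes did not overlap at either time, by a narrow margin at ZT8, and the log2 fold changes were −0.048 (adjusted p = 0.742, and −0.055 without both livers high in *Saa1*) and −0.20 (95% interval −0.35 to −0.051, adjusted p = 0.160). From ZT8 to ZT20, *Nfkb1* rose in wild-type liver by 0.20 on the log2 scale (adjusted p = 0.0442), and in knockout liver the change was 0.048 (adjusted p = 0.697). The difference between these changes is that of the genotype effects and had an adjusted p of 0.434. *Nfkb1* was the 1 of 9 members called with time in wild-type, where 27.7% of all genes passed (13.8% higher and 13.9% lower at ZT20), and DESeq2 did not call it (adjusted p = 0.0688). The call was lost in 12 of 19 alternatives, 8 of them leave-one-out fits. In knockout liver 17.5% of all genes passed with time (8.79% higher and 8.67% lower), and 0 of the 9 members did, with 2 at an unadjusted p under 0.05 and 0 with DESeq2.

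*Nfkb2* (chromosome 19, 46304320 to 46312385) encodes p100, which acts both as a precursor of p52 and as an inhibitor. It was at 5.53, 6.33 and 6.10 CPM in wild-type and 5.87, 5.67 and 5.83 in knockout liver at ZT8, and at 6.05, 5.22 and 6.08 against 7.81, 7.32 and 5.74 at ZT20. The genotypes overlapped at both times, and the log2 fold changes of −0.046 and 0.27 had adjusted p-values of 0.881 and 0.373. Without both livers high in *Saa1* the ZT8 value was 0.061 (adjusted p = 0.941). Its exons share 830 bases, 18.1% of their length, with *Psd* and *AC114539.1* on the opposite strand.

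**Figure D4:**
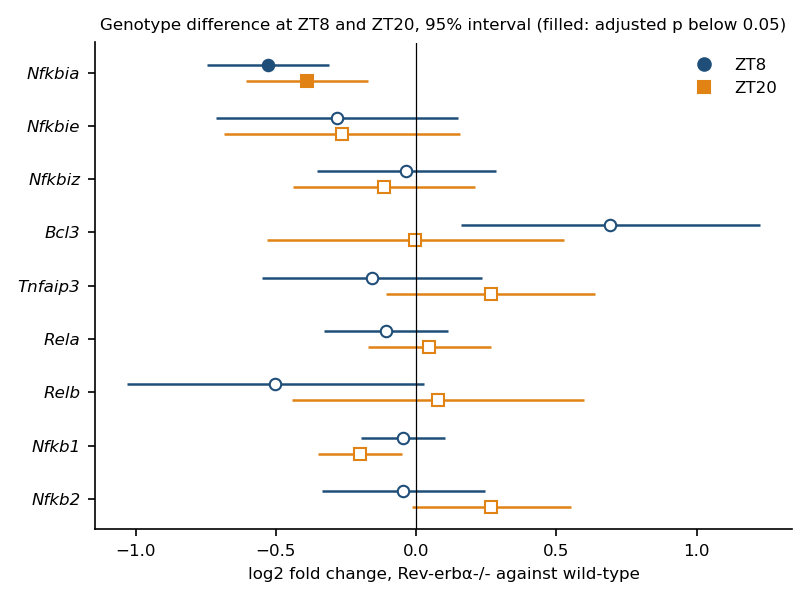
Log2 fold change of knockout against wild-type liver for the 9 genes at ZT8 (blue circles) and ZT20 (orange squares) with 95% intervals, filled where the adjusted p was below 0.05. The intervals of *Nfkbia* lay below 0 at both times, and that of *Bcl3* at ZT8, 0.16 to 1.23, lay above 0 without passing the adjusted threshold.

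Across the 12 livers, the members did not follow *Nfkbia* closely. Pearson's r of log2 CPM with *Nfkbia* was 0.59 for *Nfkbie*, 0.46 for *Relb*, 0.30 for *Nfkb1*, 0.26 for *Rela* and 0.16 for *Nfkbiz*, and it was −0.049 for *Tnfaip3*, −0.28 for *Nfkb2* and −0.52 for *Bcl3*. The genes most like it among all genes tested were *Eif4ebp2*, an inhibitor of cap-dependent translation (r = 0.97), *Tbc1d13*, a Rab GTPase-activating protein (0.93), *Abca8a*, an ABC transporter (0.92), *Fmnl1*, a formin (0.92), and the pseudogene *Rab11b-ps2* (0.92). These values describe 12 points that share 4 groups and their libraries. *Eif4ebp2* averaged 116 ± 2 CPM in wild-type against 94.2 ± 4.5 in knockout liver at ZT8, and 102 ± 9 against 91.1 ± 3.1 at ZT20 (SD, n = 3).

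Of the other genes of the pathway, 70 were listed by role and 63 could be tested. At ZT8, 11 of the 63 (17.5%) passed the threshold, where 8.45% of all genes did, 5 higher and 6 lower in knockout liver, and their median log2 fold change was −0.049. At ZT20, 0 of the 63 passed with edgeR, where 3.63% of all genes did, and 5 had an unadjusted p under 0.05. DESeq2 called 2 of them, and 679 of the 15545 genes it tested. The 11 genes called at ZT8 and *Tsc22d3*, a glucocorticoid-induced gene described at the end, kept their direction without both wild-type livers high in *Saa1*. That fit leaves 1 wild-type liver at ZT8, so only the size of its changes is given here. The log2 fold changes were as large or larger for *Tnfrsf1a* (−0.31), *Traf3* (0.59), *Tab2* (0.65) and *Birc3* (−0.38). That of *Tnfaip2* was 0.69. They were smaller for *Ltbr* (−0.24), *Ticam1* (0.24), *Ikbkg* (0.29), *Ikbke* (−0.31), *Tsc22d3* (0.34), *Il1b* (−0.53) and *Il1rn* (−1.04). When single livers were left out, *Tab2*, *Ikbkg*, *Il1rn* and *Tsc22d3* kept the ZT8 call in all 12 fits and the other 8 lost it in at least 1. With only the 6 ZT8 samples in the fit, 0 receptors and adaptors, 3 kinases and 1 target were called. Fewer of all genes were called in that fit as well, 769 of 13749 against 1224 of 14488 with all 12 samples. At ZT8, both wild-type livers high in *Saa1* also held the highest sums of acute-phase and macrophage markers, whose part in the values of these genes was not tested.

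Among 21 receptors and adaptors, 2 were lower and 2 higher at ZT8. The lower ones were the TNF receptor *Tnfrsf1a*, at 84.4, 86.7 and 75.8 CPM in wild-type and 62.2, 70.4 and 71.9 in knockout (−0.27, adjusted p = 0.0371), and the lymphotoxin β receptor *Ltbr*, at 103, 115 and 110 against 84.1, 83.1 and 94.5 (−0.32, adjusted p = 0.0115). The higher ones were *Traf3*, an adaptor that restrains the non-canonical pathway, at 12.7, 14.7 and 14.6 against 16.8, 18.9 and 21.5 CPM (0.45, adjusted p = 0.0282), and *Ticam1*, the adaptor TRIF, at 18.7, 18.2 and 16.5 against 20.7, 21.7 and 24.1 (0.32, adjusted p = 0.0361). Genotypes did not overlap for these 4 genes, but 0 of the 4 passed without wild-type replicate 2 or without knockout replicate 2 at ZT8. Of all genes, 542 of 14737 and 607 of 14741 passed in these fits, against 1224 of 14488 in the main fit.

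Among 10 kinases and their partners, 3 passed at ZT8. *Tab2*, an adaptor of the kinase TAK1, was at 72.3, 74.7 and 80.7 CPM in wild-type and 113, 111 and 118 in knockout liver (0.59, adjusted p = 0.00059), with an adjusted p of 0.0125 without both livers. *Ikbkg*, the regulatory subunit NEMO of the IκB kinase complex, was at 102, 90.2 and 92.9 against 122, 126 and 126 CPM (0.39, adjusted p = 0.00542). *Ikbke*, a kinase related to the IκB kinases, was lower, at 25.4, 33.3 and 32.8 against 17.8, 20.8 and 23.0 CPM (−0.57, adjusted p = 0.0108). The list of other inhibitors outside the 9 genes also held the subunit gene *Rel*. Of its 14 tested genes, 0 passed at ZT8 with edgeR or DESeq2, and 2 had an unadjusted p under 0.05. With edgeR 8.45% of all genes passed there.

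**Figure D5:**
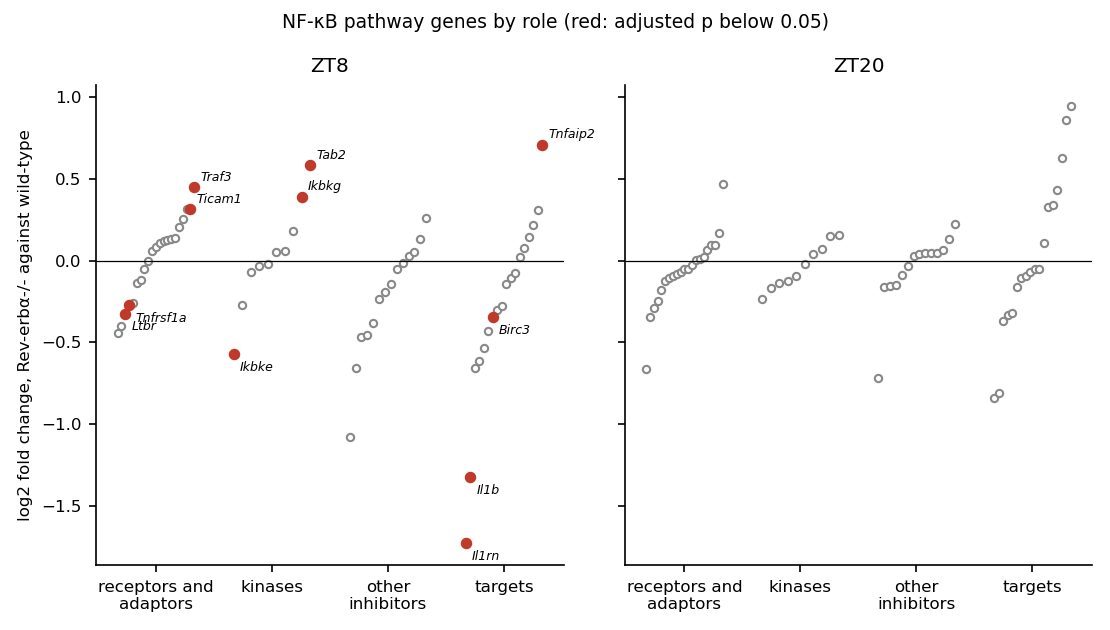
Log2 fold change of knockout against wild-type liver at ZT8 (left) and ZT20 (right) for the 63 tested genes of the pathway, by role, in red and named where the adjusted p was below 0.05. At ZT8 11 genes passed, in both directions, and at ZT20 0 did, where 8.45% and 3.63% of all genes passed.

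Of 24 textbook targets of NF-κB, 18 could be tested and 4 passed at ZT8. *Il1b*, which encodes the cytokine IL-1β, was at 1.27, 2.39 and 3.10 CPM in wild-type and 1.04, 0.833 and 0.784 in knockout liver (−1.33, adjusted p = 0.0352). *Il1rn*, its receptor antagonist, was at 1.35, 2.49 and 2.80 against 0.727, 0.500 and 0.735 CPM (−1.73, adjusted p = 0.00577). For both, wild-type replicates 2 and 3 were the highest of the 6 livers at ZT8, and without them the adjusted p was 0.689 for *Il1b* and 0.298 for *Il1rn*. *Birc3*, an inhibitor of apoptosis, was at 17.9, 17.7 and 17.0 against 12.0, 14.7 and 14.7 CPM (−0.35, adjusted p = 0.0386). *Tnfaip2*, a TNF-induced gene, was higher, at 17.0, 17.4 and 15.8 against 20.1, 25.4 and 36.4 CPM (0.71, adjusted p = 0.0215). The count of targets called was 1 without wild-type replicate 2 or 3 or knockout replicate 2 at ZT8, and 2 without knockout replicate 1 at ZT8 or wild-type replicate 2 at ZT20. Of all genes, 542, 749, 607, 882 and 948 were called in these fits, in that order, against 1224 in the main fit. The cytokine and chemokine genes *Tnf*, *Il6*, *Ccl2* and *Cxcl2* were too low to be tested.

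Since *Nfkbia* is also a GR target, 10 genes known to be induced by glucocorticoids were set beside it. Of these, 1 (10%) passed at each time, where 8.45% of all genes did at ZT8 and 3.63% at ZT20. It was *Tsc22d3*, which encodes the glucocorticoid-induced leucine zipper protein, in opposite directions. DESeq2 called 4 of the 10 at ZT8, and 1503 of the 13297 genes it tested. At ZT8, *Tsc22d3* was at 139, 109 and 113 CPM in wild-type and 164, 170 and 195 in knockout liver (0.55, adjusted p = 0.00558). At ZT20, it was at 197, 229 and 253 against 162, 173 and 174 CPM (−0.42, adjusted p = 0.0457), and this call was lost in 7 of the 12 leave-one-out fits (adjusted p up to 0.195). At ZT8 the difference was thus opposite in sign to that of *Nfkbia*, and the median of the 10 genes was −0.12 at ZT8 and −0.019 at ZT20.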

How the data were processed

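Liver RNA of 12 mice was analysed, 3 per genotype and time, grouped by the sample labels. The authors mapped poly(A) reads to mm10 with TopHat, and with HTSeq, in union mode and without regard to strand, counted the reads that mapped to 1 place. The deposited values are these raw counts per gene symbol, not normalized. Their notes also name SAMtools and DESeq2 1.6.3. Reads shared by overlapping genes were not counted.

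Genes were filtered by edgeR's default rule for low counts and fitted with edgeR 4.0.16 (R 4.3.3, limma 3.58.1) by its robust quasi-likelihood test on all 12 samples with TMM normalization. P-values were adjusted by Benjamini-Hochberg over the 14488 genes tested, with a threshold of 0.05. CPM used the TMM-scaled totals of 17641809 to 26060192 gene reads, and the limit of 3 counts covers counting error only. Nothing in the labels states that mice with the same number were paired, and deviations of same-numbered samples did not correlate. The scripts were tested on simulated data. DESeq2 1.42.0, other filters and scaling, a replicate block and left-out samples were the alternatives. Gene models came from GENCODE vM21.

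The 9 genes and all lists were chosen with earlier results of these data known. Named are the 9 genes, the listed pathway and glucocorticoid-induced genes that passed at ZT8, ZT20 or in the test between them, the 5 genes most like *Nfkbia*, *Saa1*, marker sums and *Nr1d1*. *Arntl* and the untested targets were named after their values were seen.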

Additional observations from a re-analysis of the deposited data

Results flagged for a closer look

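The genotype effects at ZT8 and ZT20 differed, in the edgeR test of that difference, for 5 of the 63 pathway genes (7.94%) and 1 of the 10 glucocorticoid-induced genes, where 5.88% of all genes and 0 of the 9 NF-κB feedback genes passed. For *Il1rap*, the IL-1 receptor accessory protein, the difference between the log2 fold changes was 0.50 (adjusted p = 0.0195), from 0.21 at ZT8 and −0.29 at ZT20, and neither effect passed alone. For *Ltbr* it was −0.42 (adjusted p = 0.0227), from −0.32 and 0.098. For *Tab2* it was 0.54 (adjusted p = 0.0143), from 0.59 and 0.044. For *Tnfaip2* it was 1.04 (adjusted p = 0.0193), from 0.71 and −0.33. For *Il1rn* it was −2.07 (adjusted p = 0.0217), from −1.73 and 0.34, at 9 to 55 reads per library. For *Tsc22d3* it was 0.97 (adjusted p = 0.0014), from 0.55 and −0.42. Without both wild-type ZT8 livers high in *Saa1*, *Tab2* (0.61, adjusted p = 0.0433) and *Tsc22d3* (0.75, adjusted p = 0.0259) still passed, and *Il1rap* (0.42), *Ltbr* (−0.35), *Tnfaip2* (1.01) and *Il1rn* (−1.39) did not (adjusted p from 0.168 to 0.229).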

How the results depend on the processing

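The count of NF-κB feedback genes called at ZT8, 1, was 2 with DESeq2 and 1 to 2 when each sample was left out. Of all genes, 1224 of 14488 were called at ZT8 in the main fit and 1503 of 13297 with DESeq2. When each sample was left out, 542 to 1811 were called. At ZT20 the count of feedback genes was 1, but 0 with at least 10 counts in every sample or only the 6 samples compared. It was 0 to 1 when each sample was left out. Of all genes, 526 of 14488 were called at ZT20 in the main fit. With at least 10 counts 439 of 12741 were called, with the 6 samples 614 of 14007, and without single samples 239 to 656. In the test between these effects the count of feedback genes was 0, and 0 to 1 without single samples. Of all genes, 852 were called in that test, and 493 to 1260 without single samples. With time in wild-type liver the count was 1, but 0 with DESeq2, with no filter on low counts and with the replicate block (*Nfkb1*, adjusted p = 0.0617). Without single samples it was 0 to 1. Of all genes, 4018 of 14488 were called with time in wild-type liver, and 3889 with the block. With DESeq2 3894 of 15994 were called, with no filter 3742 of 23189, and without single samples 2865 to 4195. With time in Rev-erbα-/- liver the count of feedback genes was 0, but 1 with the replicate block (*Nfkbiz*, −0.42, adjusted p = 0.0424). It was 2 with only the 6 samples compared, and 0 to 2 without single samples. Of all genes, 2530 of 14488 were called there, 2399 with the block, 2275 of 13925 with the 6 samples, and 1566 to 2847 without single samples. The fit without both wild-type ZT8 livers high in *Saa1* leaves 1 liver in a group, and its calls are not counted here. The replicate numbers are not stated to pair the mice, 0 of 18 same-numbered pairs correlated above 0.1, and 1 of 12 samples was closest to its own number.

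Of 549 values of the 9 genes recomputed, 18 reversed in sign, none of them past the threshold in either fit. Without both livers these were *Nfkb2* at ZT8 (0.061), *Bcl3* at ZT20 (0.0015) and *Bcl3* with time in wild-type liver (−0.30). *Bcl3* at ZT20 was also 0.0031 with no filter, 3.11e-05 with at least 10 counts and 0.0014 with the replicate block. When single samples were left out, *Nfkbiz* at ZT8 ranged from −0.16 to 0.13 and *Tnfaip3* from −0.36 to 0.034. At ZT20, *Nfkbiz* ranged from −0.26 to 0.00070, *Bcl3* from −0.097 to 0.060, *Rela* from −0.028 to 0.11 and *Relb* from −0.12 to 0.23. *Nfkb1* with time in Rev-erbα-/- liver ranged from −0.0096 to 0.095. The cause of these changes was not tested. Genes near the limit of 3 counts, such as *Tnf*, could not be tested. The 95% intervals of *Nfkbie*, *Relb* and *Tnfaip3* at ZT8 included the value of *Nfkbia*.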

Other observations

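The other inhibitors outside the 9 feedback genes were listed together with the subunit gene *Rel*, with 14 genes tested. From ZT8 to ZT20 in wild-type liver, 6 of these 14 were called, all 6 lower at ZT20. In either direction, 27.7% of all genes passed there. In Rev-erbα-/- liver 2 of the 14 (14.3%) were called, both lower, where 17.5% of all genes passed in either direction. The difference between the genotypes passed for 0 of the 14 with edgeR or DESeq2, and 0 had an unadjusted p under 0.05. With edgeR 5.88% of all genes passed in that test. Of the 21 acute-phase genes, 10 were lower and 1 higher at ZT20 in wild-type liver, and 0 were called in Rev-erbα-/- liver by edgeR or DESeq2, with 0 at an unadjusted p under 0.05. The difference between the genotypes passed for 0 of the 21 with edgeR, with 10 at an unadjusted p under 0.05, and for 8 with DESeq2. Of all genes, DESeq2 called 1086 of 15545 in that test. The wild-type count of 11 acute-phase genes ranged from 2 to 16 when single livers were left out. That of 6 among the 14 listed with the other inhibitors ranged from 2 to 7. Of all genes, 2865 to 4195 were called with time in wild-type liver in these fits, against 4018 in the main fit. Both wild-type ZT8 livers high in *Saa1* enter that comparison.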
